A study of Mus musculus with 18 samples.

Results

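Myosin light chains and the kinases that phosphorylate them were followed in myoblasts that entered differentiation with and without LAP2α, a nucleoplasmic protein that binds lamin A/C. The genes were chosen by name. They were the essential light chains *Myl1*, *Myl3*, *Myl4*, *Myl6* and *Myl6b*, the regulatory light chains *Myl2*, *Myl9* and *Mylpf*, and the kinases *Mylk* and *Mylk2*. Of these 10 genes, 9 were among the 19153 genes listed, and all 9 were among the 17672 genes tested. *Myl3*, the essential chain of the heart ventricle and of slow muscle, was not analysed here.

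RNA was sequenced from an immortalized mouse myoblast line in which p53 is knocked out in both genotypes. The LAP2α knockout cells (KO) were made with CRISPR-Cas9 and a guide to LAP2α, while the wildtype cells (WT) had received the Cas9 vector with no guide. Both were sorted for the vector's GFP as pools, not grown from 1 clone. Cells were collected while proliferating (Prol), at confluence (D0) and at day 2 after the change to lower serum (D2), with 3 libraries in each of the 6 groups and 18 in all. Nothing in the labels says that libraries of a group came from separate cultures, so p-values measure the spread between these libraries. The library totals ranged from 26437823 to 41619016 expected counts, the estimates of reads per gene made when ambiguous reads are shared out, with a median of 32939620. Values are in CPM, counts scaled to the library total and corrected between libraries, with 0.5 counts added to each gene. A gene with 3 counts or fewer was taken as not detected, which is a level of 0.0651 to 0.119 CPM depending on the library. *Tmpo*, the gene of LAP2α, was at 228 to 260 CPM in KO and 275 to 315 in WT Prol libraries, at 191 to 259 against 239 to 302 at D0, and at 94.5 to 157 against 106 to 157 at D2. Gene totals count the other *Tmpo* isoforms too, so they do not check the knockout. Skeletal muscle markers were present, and *Myog*, the transcription factor myogenin, averaged 0.780 CPM in WT Prol and was at 261 to 532 CPM in WT D2 libraries. The myoblast markers *Myod1*, *Des*, *Cdh15*, *Myf5* and *Ncam1* averaged 2.59, 3.44, 1.92, 24.5 and 139 CPM in WT Prol. At D2 in WT they averaged 88.9, 173, 127, 17.6 and 213 CPM, so that *Myf5* alone among them was lower. Among the defining markers of other cells, *Cdh5*, *Ptprc*, *Adgre1*, *Adipoq*, *Nppa* and *Myh11* were not among the genes listed, and neither was *Pax7*, a marker of muscle stem cells.

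A myosin motor is built on a pair of heavy chains, and each heavy chain neck carries an essential and a regulatory light chain. The essential chain stiffens the lever arm. The regulatory chain is phosphorylated by myosin light chain kinases once calcium and calmodulin bind them, which starts contraction in smooth muscle and in non-muscle cells and increases force in skeletal muscle. Muscle and non-muscle cells use different genes for the same position. *Myl1* and *Mylpf* encode the fast skeletal chains, *Myl4* the essential chain of the embryonic muscle and of the atrium, *Myl2* the regulatory chain of slow muscle and of the ventricle, and *Myl6b* an essential chain of slow muscle and non-muscle cells. *Myl6* and *Myl9* encode chains of smooth muscle and non-muscle myosin, as do *Myl12a* and *Myl12b*. *Mylk* is the smooth muscle and non-muscle kinase and *Mylk2* the skeletal muscle kinase.

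Sequences before the start site are shown for the 3 light chains that rose at D2 and had a searched motif in the printed stretch, and for 2 non-muscle light chains that did not, to show which motifs each holds. They are RefSeq sequences of GRCm38.p6, read 5′ to 3′ on the gene's strand. Windows of 250 bases before the start were searched on both strands for the E-box CANNTG (bound by MyoD and myogenin), its form CAGCTG, the TATA box TATAAA, the CArG box of serum response factor and the MEF2 consensus. Windows were found for 9 of the 10 genes, and *Mylk2* had none. In the stretches below, which leave out bases that GENCODE M21 annotates as exon, capitals mark these motifs.
Myl1, chr1:66945144-66945290, minus strand: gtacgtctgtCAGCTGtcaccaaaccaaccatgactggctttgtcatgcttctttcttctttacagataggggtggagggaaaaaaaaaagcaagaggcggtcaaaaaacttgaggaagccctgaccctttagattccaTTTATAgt
Mylpf, chr7:127211358-127211607, plus strand: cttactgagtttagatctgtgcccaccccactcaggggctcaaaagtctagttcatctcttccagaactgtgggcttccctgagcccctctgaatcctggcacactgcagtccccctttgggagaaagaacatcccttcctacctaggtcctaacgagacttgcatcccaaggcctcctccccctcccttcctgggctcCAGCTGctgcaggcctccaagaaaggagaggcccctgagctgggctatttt
Myl6b, chr10:128498686-128498935, minus strand: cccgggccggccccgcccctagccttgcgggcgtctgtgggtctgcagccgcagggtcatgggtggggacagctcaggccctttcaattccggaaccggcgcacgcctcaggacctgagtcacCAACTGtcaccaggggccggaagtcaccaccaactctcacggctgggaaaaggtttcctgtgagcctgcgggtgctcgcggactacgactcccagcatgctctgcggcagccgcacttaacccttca
Myl6, internal start, chr10:128493046-128493259, minus strand: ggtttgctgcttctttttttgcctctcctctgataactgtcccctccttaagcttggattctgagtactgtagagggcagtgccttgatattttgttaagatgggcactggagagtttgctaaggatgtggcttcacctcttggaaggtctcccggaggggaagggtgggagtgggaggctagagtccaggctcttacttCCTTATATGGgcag
Myl6, outer start, chr10:128493887-128493999, minus strand: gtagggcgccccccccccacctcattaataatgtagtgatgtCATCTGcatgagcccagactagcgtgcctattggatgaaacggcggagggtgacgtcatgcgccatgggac
Myl9, chr2:156775214-156775419, plus strand: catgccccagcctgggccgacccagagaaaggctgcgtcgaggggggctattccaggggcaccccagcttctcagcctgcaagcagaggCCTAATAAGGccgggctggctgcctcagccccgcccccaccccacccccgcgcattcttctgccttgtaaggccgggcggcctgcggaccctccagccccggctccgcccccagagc
The capitals in *Myl1* and *Mylpf* include a CAGCTG, which begins 224 and 51 bases before the start. Of all 32851 windows of this length, 13.0% hold CAGCTG and 66.2% hold CANNTG. *Myl1* also has TATAAA on the opposite strand 95 bases before the start, a motif in 12.4% of windows. *Myl6b* has the E-box CAACTG 127 bases before the start. *Myl6* has 2 windows. The one before the outer of its 2 RefSeq starts holds the E-box CATCTG, at 71 bases, and no CArG box, and the one before its internal start holds a CArG box, at 50 bases, and no E-box. *Myl9* has a CArG box 161 bases before the start, and 1.5% of all windows hold one. The *Myl3* window held an E-box at 189 bases and a CArG box at 85. The more upstream *Myl2* window held an E-box at 22 bases. The other *Myl2* window held a CAGCTG at 130 bases, a further E-box at 48 and TATAAA at 216. The *Myl4* and *Mylk* windows held none of the motifs searched. These are matches of letters, and binding was not measured here. *Myl1* and *Mylpf* windows lie inside the longer GENCODE genes (chr1:66924295-66945404 and chr7:127208890-127214298), and both *Myl6* windows lie inside *Myl6* (chr10:128490860-128494145). The *Mylk* window (chr16:34784700-34784949) lies inside *Mylk* (chr16:34745210-35002420), so the bases before its outer GENCODE start were not searched. Both *Myl2* windows (chr5:122092474-122092723 and chr5:122092939-122093188) end before the GENCODE *Myl2* gene, which begins at 122100951, so the bases directly before that start were not searched either. *Myl6* and *Myl6b* (chr10:128494157-128498685) follow each other on the minus strand of chromosome 10 with 11 bases between them.

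The first question was which of these genes change when myoblasts differentiate. In WT cells, 5 of the 9 genes were called higher from Prol to D2 and none was called lower. They were the fast and embryonic light chains *Myl1*, *Myl4* and *Mylpf*, the slow and non-muscle essential chain *Myl6b*, and the kinase *Mylk*. A gene was called when its unadjusted limma p was under 0.05, its change more than 1.5-fold and its level at least 10 CPM in at least 1 library compared. Of all genes tested, 23.6% were called in this comparison, and 10.8% were called as higher. The median log2 fold change was 3.00 over the 9 genes and -0.012 over all genes tested. In KO cells the same 5 genes were called, all higher, where 24.9% of all genes tested were called, 11.3% as higher. The median there was 2.09, against 0.024 over all genes.

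*Myl1*, which encodes both fast essential chains from alternative starts that gene totals do not separate, was at 1.65, 0.178 and 0.253 CPM in WT Prol replicates 1, 2 and 3 and at 431, 459 and 336 CPM at D2. In KO cells it was at 0.524, 1.93 and 0.516 CPM in Prol and 148, 360 and 195 CPM at D2. Every D2 library was above every Prol library in both genotypes, as for 23.0% of all genes in WT and 25.1% in KO. It rose by 9.91 on the log2 scale (SE 0.92, adjusted p = 1.32e-06, limma) in WT and 8.08 (0.92, adjusted p = 8.45e-06) in KO. *Myl4*, the embryonic essential chain, went from 2.68, 1.44 and 0.895 CPM in WT Prol to 597, 592 and 423 CPM at D2. Its KO libraries held 1.31, 2.75 and 0.915 CPM in Prol and 178, 373 and 276 CPM at D2. The rise on the log2 scale was 8.45 (0.48, adjusted p = 4.20e-08) in WT and 7.47 (0.48, adjusted p = 2.37e-07) in KO, again with no overlap between Prol and D2.

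*Mylpf*, the fast regulatory chain, was at 3.57, 1.01 and 1.16 CPM in WT Prol and at 748, 1060 and 677 CPM at D2. KO libraries held 1.63, 2.85 and 1.61 CPM in Prol and 246, 671 and 411 CPM at D2. On the log2 scale it rose by 8.98 (0.64, adjusted p = 1.90e-07) in WT and 7.70 (0.64, adjusted p = 7.79e-07) in KO. *Myl6b* was higher than these before differentiation, at 5.65, 5.28 and 4.59 CPM in WT and 5.26, 5.01 and 4.27 CPM in KO Prol libraries. At D2 it stood at 42.1, 34.4 and 26.1 CPM in WT and 15.3, 23.5 and 18.9 CPM in KO. The log2 fold changes were 2.70 (0.24, adjusted p = 8.02e-07) and 1.97 (0.24, adjusted p = 1.31e-05).

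*Myl2*, the slow regulatory chain, stayed far below the other muscle chains and under the 10 CPM minimum. WT libraries held 0.0669, 0.0198 and 0.0169 CPM in Prol, all at 3 counts or fewer, and 0.342, 0.287 and 0.352 CPM at D2. Without the added counts, the D2 mean in WT was 3.12-fold the level of 3 counts per Prol library, and so at least 3.12-fold the Prol level. In KO cells the D2 values were 0.0164, 0.249 and 0.223 CPM, with replicate 1 not detected. Their mean without the added counts was 1.58-fold the level of 3 counts per KO Prol library. The D2 and Prol libraries overlapped in KO and not in WT. The fitted log2 fold change in WT, 3.53 (1.09, adjusted p = 0.0220), depends on the added 0.5 counts.

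None of the non-muscle chains *Myl6*, *Myl9*, *Myl12a* and *Myl12b* was called from Prol to D2. *Myl6* was at 619, 600 and 573 CPM in WT Prol and 535, 633 and 550 CPM at D2, with 517, 675 and 520 CPM and 473, 530 and 543 CPM in KO. The log2 fold changes of -0.06 (0.20, adjusted p = 0.849) and -0.14 (0.20, adjusted p = 0.654) were within the spread between libraries. With no scaling beyond library totals the WT value was 0.10, a setting that moved the median over all genes from -0.012 to 0.150. *Myl9* was at 16.1, 6.54 and 12.2 CPM in WT Prol and 16.3, 13.6 and 16.7 CPM at D2, and at 13.6, 8.47 and 8.64 against 17.4, 7.67 and 13.1 CPM in KO. Its log2 fold changes were 0.51 (0.36, adjusted p = 0.320) and 0.27 (0.36, adjusted p = 0.620), and its groups overlapped in both genotypes. *Myl12a* and *Myl12b*, whose near-identical sequences leave the split of reads between them uncertain, had log2 fold changes of -0.18 (0.20) and 0.26 (0.20) in WT and -0.34 (0.20) and 0.30 (0.20) in KO, and neither was called. *Myl7* and *Myl10* were not analysed here.

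The kinases differed. *Mylk* was at 3.71, 4.73 and 2.62 CPM in WT Prol and at 27.2, 27.5 and 31.3 CPM at D2. KO libraries held 3.97, 5.42 and 3.88 CPM in Prol and 15.1, 12.7 and 36.5 CPM at D2, so that replicate 3 stood above the other 2 and above all WT libraries. The log2 fold changes were 3.00 (0.39, adjusted p = 2.62e-05) in WT and 2.13 (0.39, adjusted p = 0.000550) in KO. The *Mylk* gene (chr16:34745210-35002420, plus strand) also encodes telokin, a short protein from its 3′ end, which gene totals do not separate. *Mylk2*, the skeletal muscle kinase (chr2:152911352-152923068, plus strand), stayed at 0.464 to 6.75 CPM in all 18 libraries. It lay under the 10 CPM minimum throughout and so could not be called in any comparison of groups. In WT it was at 0.629, 1.32 and 0.861 CPM in Prol and 2.22, 1.27 and 1.48 CPM at D2, a log2 fold change of 0.85 (0.78, adjusted p = 0.457), and the KO value was 0.97 (0.78, adjusted p = 0.382). Every KO D2 library, at 1.17 to 2.27 CPM, was above every KO Prol library, at 0.704 to 0.990 CPM, as for 25.1% of all genes. Per length, the smooth muscle and non-muscle gene was the higher of the pair at D2, at 2.55 ± 0.205 CPM per kb of exon against 0.561 ± 0.169 for *Mylk2* in WT (SD, n = 3).

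**Figure D1:**
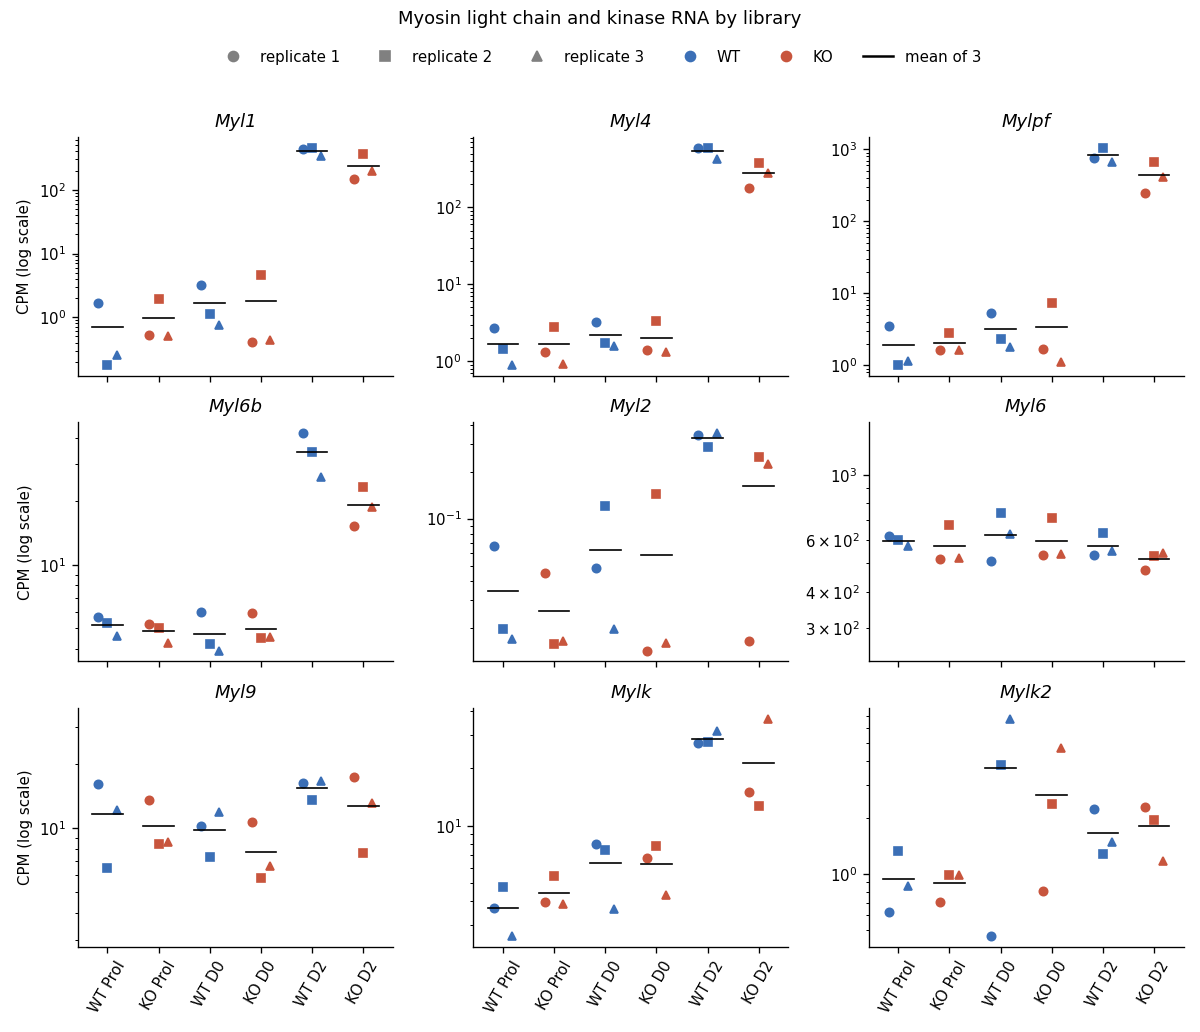
CPM of each of the 9 genes (log scale, a separate range per gene) in the 18 libraries, by group, with replicate numbers as symbols and the mean of 3 as a line. *Myl1*, *Myl4*, *Mylpf*, *Myl6b* and *Mylk* have every D2 library above every Prol and D0 library, *Myl6* lies between 473 and 739 CPM throughout, and *Mylk2* is highest in D0 replicates 2 and 3 of both genotypes.

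At D0, when cells had only become confluent, none of the 9 genes was called against Prol in either genotype. Only *Myl6* and *Myl9* reached the minimum of 10 CPM in a Prol or D0 library, so the other genes could not be called. The percentages of all genes called were 0.226 in WT and 0.108 in KO. The unadjusted limma p was over 0.05 for each of the 9 genes in both, and the adjusted p was 1. *Mylk2* was uneven at D0, at 0.464, 3.84 and 6.75 CPM in WT and 0.814, 2.37 and 4.73 CPM in KO. Replicate 1 was the lowest and replicate 3 the highest in both genotypes, and the log2 fold changes against Prol were 1.36 (0.78) and 1.25 (0.78). *Mylk* was at 8.05, 7.48 and 3.66 CPM in WT D0, a log2 fold change of 0.75 (0.39). From D0 to D2 the 5 genes that rose from Prol met the criteria again in both genotypes, where 20.7% of all genes were called in WT and 22.6% in KO. *Myl9* had 0.68 (0.36) in WT and 0.69 (0.36) in KO from D0 to D2 and was not called. A fit blocked on replicate numbers, which called 24.4% of all genes in WT and 26.4% in KO, called it in both (in KO with an SE of 0.21, unadjusted p = 0.00503, limma). In KO 6 genes were also called without KO D0 replicate 1 or KO D2 replicate 2, where 4142 and 3645 of all 17672 genes were called. For *Mylpf* the log2 fold changes from D0 to D2 were 8.17 (0.64) in WT and 7.41 (0.64) in KO.

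Before D2 the muscle chains were low but not equal among libraries of a group. WT Prol replicate 1 and KO Prol replicate 2 had the highest *Myl1*, *Myl4* and *Mylpf* of their groups, and so did WT D0 replicate 1 and KO D0 replicate 2. In KO D0, *Myl1* was at 4.61 CPM in replicate 2 and at 0.414 and 0.436 CPM in replicates 1 and 3. *Mylpf* was at 7.33 CPM in that library and at 1.70 and 1.11 CPM in the others. *Myog* was highest in the same 4 libraries, at 1.30 CPM in WT Prol, 1.59 in KO Prol, 4.53 in WT D0 and 3.15 in KO D0. In bulk RNA, fewer cells of a type and less RNA per cell cannot be told apart.

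Per length of exon, the order of the genes turned over between Prol and D2. In WT Prol, *Myl12a* stood first at 243 ± 16.1 CPM per kb (SD, n = 3), followed by *Myl6* at 187 ± 7.31, and *Myl12b* at 35.7 ± 6.27. *Myl9* lay at 5.63 to 13.9 CPM per kb, with *Myl6b* at 2.80 ± 0.292 and *Mylpf* at 1.80 ± 1.35. *Myl1*, *Myl4*, *Mylk* and *Mylk2* lay at 0.318 to 0.361 CPM per kb on average and overlapped one another. In WT D2, *Mylpf* led at 780 ± 192 CPM per kb. The next 3, *Myl12a* at 214 ± 16.7, *Myl1* at 197 ± 31.1 and *Myl6* at 180 ± 16.6, did not differ beyond their spread. Per kb of the longest transcript instead, *Myl1* was at 399, 424 and 311 and *Myl6* at 176, 208 and 181 CPM. Their order thus depends on the length used. Per length of exon, *Myl4* at 116 ± 21.3 was below these 3, and *Myl6b* at 18.5 ± 4.31 overlapped *Myl9* at 13.4 ± 1.48. In KO D2, *Mylpf* led again at 417 ± 202 CPM per kb. *Myl1* at 113 ± 53.6 came after *Myl6* at 162 ± 11.6 there, and both *Myl6* and *Myl4* (38.4 to 80.4 CPM per kb) overlapped *Myl1* across libraries. Per kb of the longest transcript, *Myl1* was at 137, 333 and 181 and *Myl6* at 156, 174 and 178 CPM in KO D2, again with overlap.

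The make-up of the light chain RNA changed accordingly. *Myl1* and *Myl4* made up 0.173% to 0.691% of the CPM per kb of the 4 essential light chains measured in WT Prol libraries and 57.6% to 63.9% at D2. *Mylpf* and *Myl2* made up 0.345% to 1.19% of the regulatory chains (*Myl9*, *Myl12a* and *Myl12b* being the others) in WT Prol and 71.6% to 77.4% at D2. The levels of both shares depend on the lengths used. In KO D2 libraries the shares were 41.2%, 58.6% and 46.0% for the essential and 50.9%, 72.6% and 61.1% for the regulatory chains. The KO mean was 12.4 percentage points lower for the essential (48.6 ± 9.01 against 61.0 ± 3.19, SD, n = 3, two-sided exact permutation p = 0.200) and 12.3 points lower for the regulatory chains (61.5 ± 10.8 against 73.9 ± 3.14, exact permutation p = 0.300). With 3 libraries against 3, this test cannot go below 0.1. KO replicate 2 lay within the WT range in both shares, and replicates 1 and 3 lay below it. By replicate number, both shares were lower in KO in 3 of 3 pairs. Without KO replicate 1 the difference for the regulatory chains was -7.04 points, and with *Myl12a* and *Myl12b* left out of the total it was -1.53 points.

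**Figure D2:**
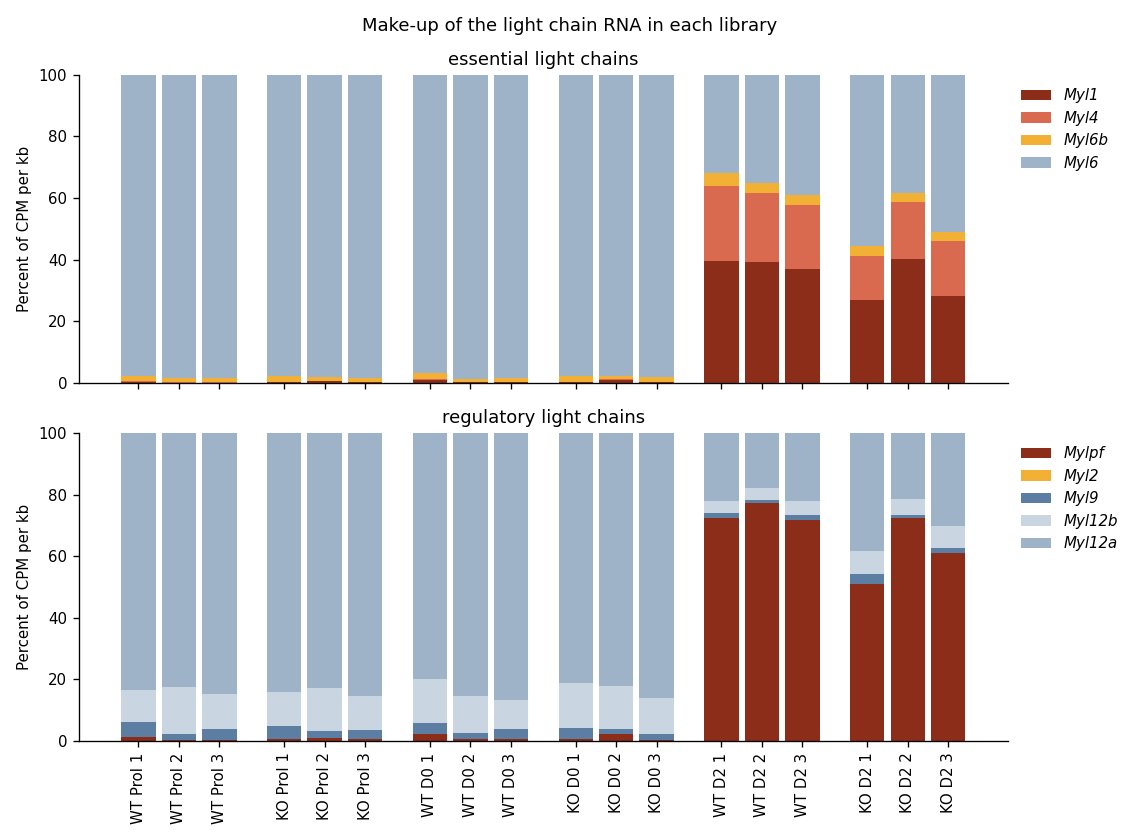
Stacked bars of the percentage of CPM per kb of exon that each gene contributes to the essential (top) and regulatory (bottom) light chains, 1 bar per library. *Myl6* and *Myl12a* fill most of each bar in Prol and D0, and *Myl1* with *Myl4*, and *Mylpf*, fill 41.2% to 63.9% and 50.9% to 77.4% at D2.

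The second question was whether the loss of LAP2α alters these genes within a state. In Prol and at D0 none of the 9 genes was called between KO and WT, where 0.113% and 0.209% of all genes tested were called. Only *Myl6* and *Myl9* reached the minimum of 10 CPM in these states, so the other genes could not be called. The unadjusted limma p was over 0.05 for each of the 9 genes, and the KO and WT groups overlapped for all of them in both states. At D2, 8 of the 9 log2 fold changes were below 0, with a median of -0.83 against -0.013 over all genes, and 1 gene was called, *Myl6b*. Of all genes tested, 0.464% were called in this comparison, 0.255% as lower.

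*Myl6b* was at 15.3, 23.5 and 18.9 CPM in KO and 42.1, 34.4 and 26.1 CPM in WT D2 libraries, and the 2 groups did not overlap. Its log2 fold change was -0.83 (0.24, unadjusted p = 0.00296, adjusted p = 1 over all genes, limma), lower in KO in 3 of 3 same-numbered pairs. It stayed under 0.05 unadjusted when any 1 of the 6 libraries was left out, with log2 fold changes of -1.01 to -0.66. The difference between the KO effect at D2 and that in Prol was -0.73 (0.33, unadjusted p = 0.0434, adjusted p = 1). By these criteria 0.232% of all genes were called for that difference. *Myl6*, its neighbour on the chromosome, had a KO/WT D2 log2 fold change of -0.15 (0.20, unadjusted p = 0.465).

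The 3 chains with the largest rise at D2 were lower in KO by about as much but spread more between libraries. *Myl4* had 178, 373 and 276 CPM in KO against 597, 592 and 423 CPM in WT, a log2 fold change of -1.01 (0.48, unadjusted p = 0.0523, adjusted p = 1). The fit blocked on replicate numbers, in which 1.21% of all genes were called, gave an unadjusted p of 0.0209 and called *Myl4*. It was also called without KO D2 replicate 2, at -1.26. *Mylpf* had 246, 671 and 411 CPM in KO against 748, 1060 and 677 CPM in WT, with no overlap and a log2 fold change of -0.99 (0.64, unadjusted p = 0.138). *Myl1* had a log2 fold change of -0.89 (0.92, unadjusted p = 0.348), and KO replicate 2, at 360 CPM, was above WT replicate 3, at 336 CPM. Within same-numbered pairs each of the 3 was lower in KO in 3 of 3. The largest difference was in pair 1, at -1.54 for *Myl1*, -1.75 for *Myl4* and -1.60 for *Mylpf*, and the other pairs lay between -0.35 and -0.78. When only the 6 D2 libraries entered the fit, the unadjusted p was 0.0419 for *Myl1*, 0.0187 for *Myl4* and 0.0462 for *Mylpf*. Of all genes tested, that fit called 159, against 82 in the fit of all libraries. Groups that did not overlap, lower in KO, made up 3.81% of all genes tested, and were found for *Myl2*, *Myl4*, *Myl6b* and *Mylpf* among the 9.

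*Mylk* was at -0.58 (0.39, unadjusted p = 0.154), and its groups overlapped because KO replicate 3, at 36.5 CPM, was the highest D2 library. Without that library the log2 fold change was -1.04 and *Mylk* was called. *Mylk2* was at 0.10 (0.78, unadjusted p = 0.897) and *Myl9* at -0.36 (0.36, unadjusted p = 0.329). *Myl2*, near the detection limit, was at -1.75 (1.09, unadjusted p = 0.129), a value that rests on KO replicate 1, without which it was -0.47.

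**Figure D3:**
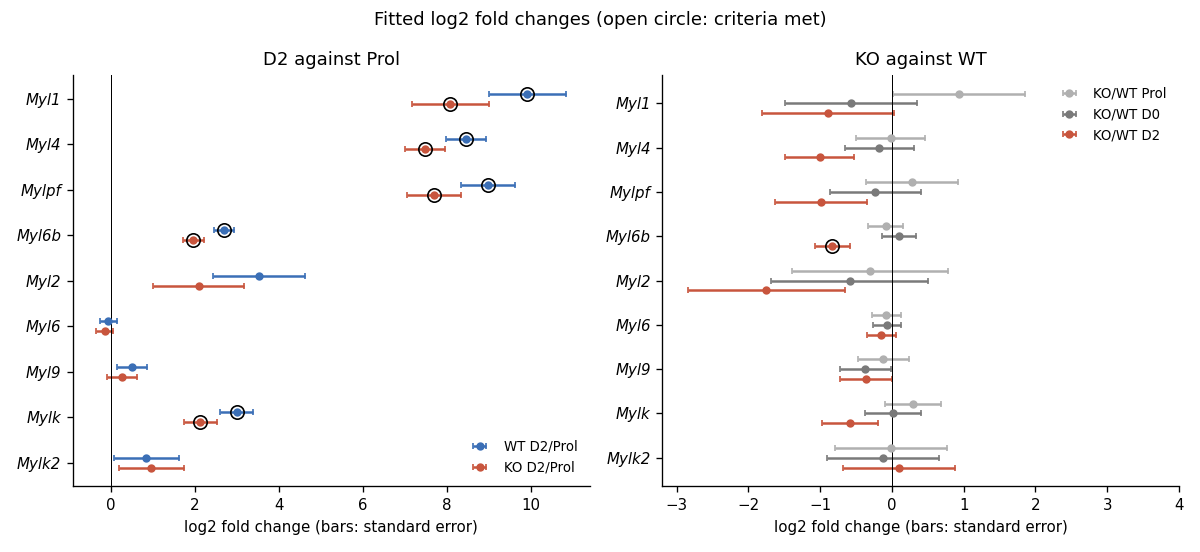
Fitted log2 fold changes with standard errors for the 9 genes, D2 against Prol in WT and KO (left) and KO against WT in Prol, D0 and D2 (right), with open circles where the criteria were met. The same 5 genes are circled on the left in both genotypes, and *Myl6b* alone is circled on the right, at -0.83.

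**Figure D4:**
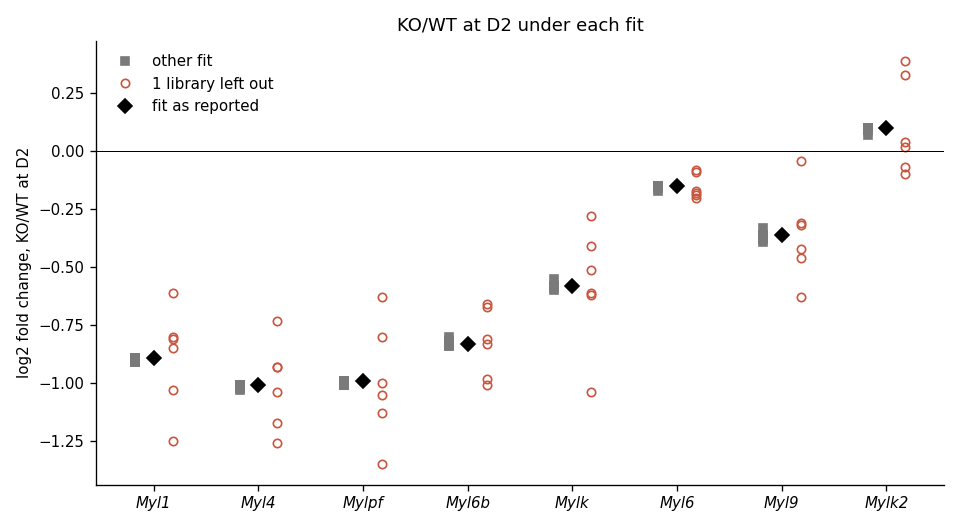
KO/WT log2 fold changes at D2 for 8 of the 9 genes (*Myl2*, under 10 CPM, is left out) as reported (diamonds), in other fits (squares) and with each of the 6 libraries left out (open circles). The values for *Myl1*, *Myl4*, *Mylpf*, *Myl6b* and *Mylk* are below 0 in every fit. With a library left out, *Myl6* (-0.20 to -0.08) and *Myl9* (-0.63 to -0.04) also stay below 0, and *Mylk2* lies on both sides of 0, from -0.10 to 0.39.

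Markers of muscle differentiation moved with the light chains. All 6 of *Myog*, *Mymk*, *Mymx*, *Ckm*, *Mef2c* and *Acta1* had KO/WT D2 log2 fold changes below 0, and 2 were called, *Mef2c* at -0.82 (0.35) and *Ckm* at -1.11 (0.48). Of all genes tested, 0.464% were called in this comparison, and 0 had an adjusted p under 0.05. The summed level of the 6 markers was 780 to 1083 CPM in KO and 1334 to 2760 CPM in WT D2 libraries. The part of this difference in the light chain values was not tested. To set light and heavy chains side by side within a library, each light chain was divided by *Myh3*, the embryonic heavy chain, per kb. The ratio of *Myl1* to *Myh3* was 0.608, 1.34 and 0.935 in WT D2 replicates 1, 2 and 3 and 0.582, 1.52 and 0.893 in KO. For *Mylpf* it was 2.06, 6.04 and 3.68 in WT and 1.89, 5.55 and 3.67 in KO. For *Myl4* it was 0.376, 0.772 and 0.527 in WT and 0.313, 0.705 and 0.565 in KO. For *Myl6b* it was 0.0666, 0.113 and 0.0817 in WT and 0.0674, 0.112 and 0.0969 in KO. Replicate 1 was lowest and replicate 2 highest in both genotypes for each chain. For *Myl1*, *Mylpf* and *Myl4*, same-numbered WT and KO libraries lay closer to each other than the replicates of a genotype did, while for *Myl6b* replicate 3 of WT and KO lay about as far apart as some replicates of a genotype. The balance of long and short transcripts followed the same numbers. Genes with long transcripts (over 5000 bases) deviated from their group means by 0.74 more on the log2 scale than genes with short ones (under 1500 bases) in D2 replicate 1 of both genotypes, as medians, and by -0.62 and -0.49 in replicate 2 of WT and KO. Its part in the ratios was not tested.

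**Figure D5:**
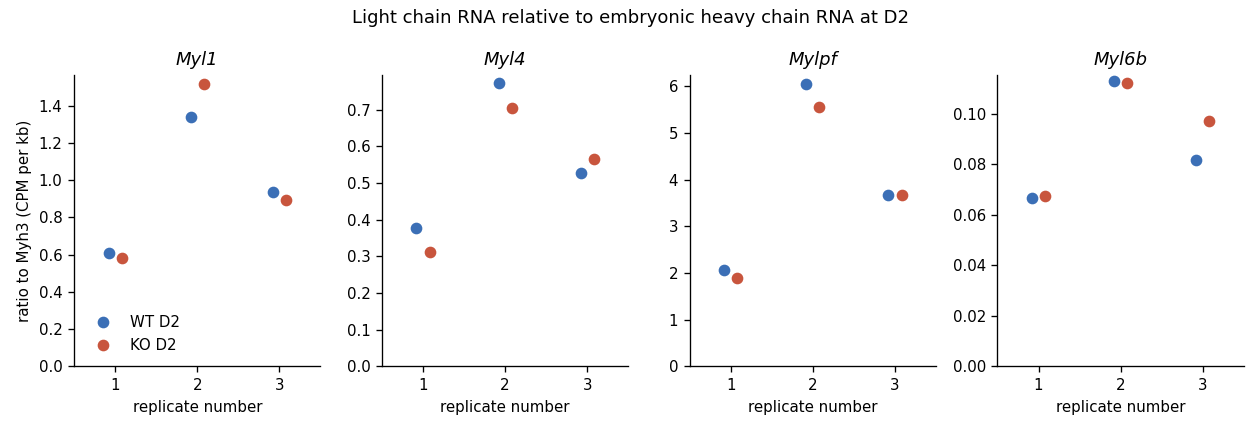
Ratio of *Myl1*, *Myl4*, *Mylpf* and *Myl6b* to *Myh3* (both in CPM per kb of exon, axes from 0) in the D2 libraries, by replicate number. WT and KO points of a number lie near each other, while *Mylpf* runs from 1.89 to 6.04 between numbers.

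Heavy chains gave the frame for these values. *Myh3* was the heavy chain with the highest level per kb in WT D2, at 227 ± 99.7 CPM per kb (SD, n = 3), followed by the non-muscle chains *Myh9* at 84.4 ± 65.7 and *Myh10* at 22.9 ± 15.3 and by *Myh1*, an adult fast chain, at 5.85 ± 0.974. The log2 fold changes of *Myh3* from Prol to D2 were 9.86 (1.03) in WT and 8.52 (1.03) in KO, and its KO/WT D2 value was -0.91 (1.03, unadjusted p = 0.390). Of 13 heavy chain genes looked for, 11 were tested. From Prol to D2, 5 were called higher in WT and 4 in KO, and none was called between KO and WT at D2. Of all genes, 10.8% were called as higher in WT and 11.3% in KO, and 0.464% were called between KO and WT at D2. By an adjusted p under 0.05 alone, with no minimum of CPM, 9 heavy chains were higher in WT and 8 in KO. Of all genes, 30.7% in WT and 32.3% in KO had such a p, in either direction. *Myh9* and *Myh10* did not pass the test in either genotype, with log2 fold changes of -0.73 (0.65) and -0.63 (0.60) in WT.

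Other genes acting on the regulatory light chain were taken as a list of 21 kinases, phosphatase subunits, inhibitors and calcium sensors, all of which were tested. In WT, 2 were called higher and 1 lower from Prol to D2, and in KO, 3 higher and 2 lower, where 23.6% and 24.9% of all genes were called. The list's median log2 fold changes, -0.19 and -0.13, were near those of all genes. *Mylk4*, a further member of the light chain kinase family, rose by 4.96 (0.54, adjusted p = 5.48e-06) on the log2 scale in WT and 4.51 (0.54, adjusted p = 1.31e-05) in KO, reaching 20.3 to 48.1 and 13.2 to 19.6 CPM. *Dapk2*, a calmodulin-dependent death-associated kinase that can phosphorylate the regulatory chain, rose by 3.18 (0.35) and 2.55 (0.35). *Cit*, citron kinase, which acts on myosin in cell division, was at 74.4 to 76.2 CPM in WT Prol and 8.42 to 22.9 CPM at D2, changing on the log2 scale by -2.25 (0.30, adjusted p = 4.02e-05) in WT and -2.37 (0.30, adjusted p = 2.56e-05) in KO. *Mylk3*, the heart kinase, had mean levels of 0.173 CPM in Prol and 0.170 CPM at D2 in WT. *Ppp1r12b*, a myosin phosphatase targeting subunit, was called higher in KO at 0.92 (0.39, adjusted p = 0.0849) and had 0.78 (0.39, adjusted p = 0.147) in WT, where the fit with the replicate block called it. The KO call was lost without KO Prol replicate 2 or 3 or KO D2 replicate 1, with log2 fold changes of 0.88, 0.83 and 0.49, and WT gained it without WT Prol replicate 1 or WT D2 replicate 2, at 0.97 and 1.06. *Ppp1r14b*, a phosphatase inhibitor, was called lower in KO at -0.70 (0.21, adjusted p = 0.0187) and had -0.46 (0.21, adjusted p = 0.118) in WT. The difference between genotypes was not tested for either. Between KO and WT at D2 none of the 21 was called, with *Mylk4* at -0.77 (0.54) and *Dapk2* at -0.46 (0.35).

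Smooth muscle and heart genes were looked at because *Mylk*, *Myl9* and *Myl4* are also expressed there. Of 7 smooth muscle markers tested in WT D2/Prol, *Acta2*, smooth muscle actin, rose by 1.73 (0.36) on the log2 scale and *Cnn1*, calponin, had -1.65 (0.51) and was called lower. The other 5 were not called. The summed level of the 7 was 425 to 958 CPM in WT Prol and 1035 to 1873 CPM at D2. *Acta2* made this rise, going from 309 to 991 CPM on average, while *Tagln* went from 332 to 256 CPM. *Myocd*, a defining smooth muscle regulator, went from 1.33 to 0.181 CPM. Of the 7 log2 fold changes 5 were below 0, with a median of -0.19. Of 8 heart markers, 5 were among the genes listed. Their sum was 7.98 to 26.0 CPM in WT Prol and 702 to 1797 CPM at D2. Nearly all of the D2 sum was *Actc1*, at 839 CPM on average, and *Tnnt2*, which embryonic skeletal muscle also uses, at 282 CPM. The others, *Myh6*, *Tnni3* and *Ryr2*, averaged 6.11, 1.45 and 0.116 CPM. The 3 listed endothelial markers summed to at most 2.57 CPM in any library, the 2 adipocyte markers to at most 0.991, and the 2 blood cell markers to group means of at most 6.42.

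For 4 of the genes, the 3 other genes with the most alike pattern were found as those with the smallest root mean square difference between centred log2 CPM profiles over all 18 libraries. For *Mylpf* they were *Myog* (0.484), *Ryr1* (0.528), the calcium release channel of skeletal muscle, and *Atp2a1* (0.556), the fast muscle calcium pump. These differences are small beside the range of *Mylpf* itself, 10.04 on the log2 scale. For *Myl6b*, with a range of 3.42, they were *E2f2* (0.276), *Adamts7* (0.281) and *Rtn2* (0.281). For *Mylk*, with a range of 3.80, they were *Cbr2* (0.372), *Tnfaip6* (0.378) and *Cpxm1* (0.397). For *Myl9*, with a range of 1.57, they were *Mtr* (0.293), *Stom* (0.296) and *Fitm2* (0.303). All of these points come from the same 18 libraries and share their group differences.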

How the data were processed

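RNA-seq was deposited as 1 file of values per library. The authors used cutadapt to trim strand-specific single-end reads, NextGenMap to map them to transcripts of GRCm38, RSEM to estimate expected counts and edgeR for TMM factors, and deposited scaled CPM with 0.5 expected counts added. This was checked on the values, whose 18 implied factors multiply to 1. Of the recovered counts under 20, 36.0% to 49.1% were whole to within 0.01, so no test for whole counts was run.

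The 17672 genes that had over 5 expected counts in every library of some group were tested on log2 CPM with limma 3.58.1 in R 4.3.3 (lmFit, eBayes with trend, 6 groups, 18 libraries), with Benjamini-Hochberg adjustment over all genes tested. The spread of all 6 groups thus entered each test. The authors blocked their own fit on the sequencing lane to account for a batch effect. The labels do not give the lane, so this fit has no block, and replicate numbers served as a block only in alternative fits. Shares were compared with exact permutation tests. Lengths and gene positions are from GENCODE M21, a later release than the one mapped to, and figures were drawn with matplotlib 3.10.9.

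The members and lists were chosen with earlier results of these data known. The genes named were the members, the other light chains, listed regulators called at D2 with *Mylk3* and *Mylk4*, the 4 heavy chains highest per kb in WT D2 with *Myh9*, and the 3 genes most alike to each of 4 members. Same-numbered libraries deviated together, with correlations across genes of 0.163 to 0.645 in the KO/WT comparisons and over 0.1 elsewhere, except for replicate 3 of WT D2/Prol (0.039) and of WT D2/D0 (0.010). The fit was tested on simulated data.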

Additional observations from a re-analysis of the deposited data

Results flagged for a closer look

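The KO effect on *Myl6b* differed between states in the fit of the difference itself. KO minus WT was -0.83 on the log2 scale at D2 and -0.09 in Prol, a difference of -0.73 (standard error 0.33, unadjusted p = 0.0434, adjusted p = 1, limma). The D2 values were lower in KO in 3 of 3 same-numbered pairs, by -1.46, -0.55 and -0.47, and the Prol values by -0.10, -0.07 and -0.11. The unadjusted p was over 0.05 with voom weights (-0.72) and when 1 of 8 of the 12 libraries was left out. These were WT Prol replicates 2 and 3, KO Prol replicates 1 and 2, WT D2 replicates 1 and 2 and KO D2 replicates 1 and 3, with values of -0.75 to -0.57.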

How the results depend on the processing

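The alternatives were chosen with earlier results of these data known. The numbers of genes called from Prol to D2 (5 in each genotype), from Prol to D0 (0) and between KO and WT in Prol and at D0 (0) held under every alternative run, except that *Myl2* made it 6 in WT D2/Prol with no minimum of CPM. From D0 to D2 the number was 5 or 6 in each genotype. Both share differences kept their sign. With a library left out they ran from -17.4 to -8.70 percentage points for the essential and from -17.9 to -7.04 for the regulatory chains, the ends being without KO D2 replicates 2 and 1. The regulatory difference was -1.53 without *Myl12a* and *Myl12b*. Between KO and WT at D2, where 1 gene was called, 2 were called with voom weights, 2 with the replicate block, 2 with a pseudocount of 1 CPM, 3 with the block and voom together and 4 when only the groups compared were fitted. These settings also called more of all genes, with 172, 213, 171, 293 and 159 in that order, against 82. There were 0 with an adjusted p under 0.05 (346 of all genes had an unadjusted p under 0.05) and 0 with a log2 fold change over 1.5. Leaving out 1 library gave 1 to 2, the second being *Myl4* without KO D2 replicate 2 and *Mylk* without KO D2 replicate 3. For the change of the KO effect from Prol to D2 the number was 0 with voom weights, with an adjusted p under 0.05 and with a log2 fold change over 1.5, and 0 to 2 with a library left out. Without WT Prol replicate 1 *Myl1* was called at -2.82, and without KO D2 replicate 3 *Mylk* was called at -1.33. The causes were not tested.

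Signs changed for values near 0. *Myl6* in WT D2/Prol was 0.10 with library totals alone. With a library left out, *Mylk2* in KO/WT D2 ran from -0.10 to 0.39, and in the difference of effects *Myl6* ran from -0.14 to 0.05, *Myl9* from -0.52 to 0.13 and *Mylk2* from -0.16 to 0.41. Library totals alone turned the split of WT D2/Prol calls over all genes from 1906 higher and 2261 lower to 2404 and 1728, and that of KO D2/Prol from 1989 and 2418 to 2348 and 1997.

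Over all genes, the 82 calls of KO/WT D2 became 172 with voom weights, 213 with the replicate block, 159 with only the groups compared, 171 with a pseudocount of 1 CPM, 293 with block and voom, 299 with no minimum of CPM and 13 with a log2 fold change over 1.5. They became 318 without WT D2 replicate 1 and 146 without KO D2 replicate 3. Besides *Myl4* in KO/WT D2, *Myl9* in D2/D0 and *Ppp1r12b* in WT D2/Prol, the replicate block changed no call named here. Depth limits *Myl2*, whose Prol libraries hold 3 counts or fewer, and counting error there is not covered by the fit.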
